A study of Mus musculus with 6 samples.

Results

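The AP-1 transcription factor genes Jun, Junb, Jund, Fos, Fosb, Fosl1, Fosl2, Atf3, Batf and Batf3 were examined in an ATAC-seq study, which cuts open chromatin with a transposase, of basal stem cells sorted from mouse prostates. These 10 genes were taken by name, out of 21887 protein-coding genes on the 19 autosomes, X and Y. They were matched to a list of 6502 genomic regions, and a region was assigned to a gene when its centre lay inside the gene or at most 100 kb from it. Of the 6502 regions, 6 met that rule. The study had 3 libraries from inflamed prostates and 3 from naive prostates. The inflamed group is labelled with the genotype POET3, a transgenic strain that expresses ovalbumin in the prostate, and its inflammation was started by transferring activated splenocytes of OT-1 mice, whose T cells recognise ovalbumin, 7 days before the tissue was taken. The naive group is labelled as a control of genotype WT, although the extraction protocol names POET3 mice for both groups, so genotype and inflammation cannot be told apart by the labels. In both groups the cells were Sca-1+ CD49f+ and lacked CD45 and CD31, the surface markers of leukocytes and endothelial cells, and they were not cultured. The promoter of the ovalbumin transgene and any pooling of animals are not given in the sources used here.

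The deposited list holds positions only. It was read as a list of regions that differ between inflamed and naive cells, because its name and the tools named with it point to a differential test, but it carries no direction, no signal, no p-value and no value per library. The read depth is therefore unknown, values have no error over replicates, and no gene could be tested between inflamed and naive cells. A gene without a listed region may still be fully accessible in both groups. For the same reason the labelled cell type could not be checked by expression: 5 of 6 basal epithelial marker genes had a listed region within 100 kb, as did 1 of 4 luminal, 2 of 5 leukocyte, 3 of 3 endothelial and 1 of 3 fibroblast marker genes, against 42.7% of all protein-coding genes, which says where regions lie and not which cells were present.

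AP-1 is a pair of basic leucine zipper (bZIP) proteins that binds DNA as a dimer, usually a Jun protein with a Fos, ATF or BATF protein. Its best known site is the TPA response element TGA(C/G)TCA, and dimers with ATF proteins also bind the cyclic AMP response element TGACGTCA. The first was searched here in the looser form TGANTCA, which also admits TGAATCA and TGATTCA. Several of the genes are switched on quickly by growth factors, cytokines and stress through MAP kinases. AP-1 is known as a regulator of proliferation and wound responses in stratified epithelia, where basal cells sit.

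The sequences that matter most for reading the assignments are those of the regions near Fosl1 and Fosb, because both fell in the promoter window of another gene. RefSeq (GRCm38.p6) gives 250 bases before to 50 bases after each annotated start, and these windows held the region near Fosl1 in full (143 of its 143 bases) and 111 of the 143 bases of the region near Fosb. They are printed on the strand of the gene whose window they overlap. The Sart1 stretch lies wholly before the annotated start, and the Ercc2 stretch spans it.
Sart1 promoter window, region near Fosl1, chr19:5388722-5388864, minus strand: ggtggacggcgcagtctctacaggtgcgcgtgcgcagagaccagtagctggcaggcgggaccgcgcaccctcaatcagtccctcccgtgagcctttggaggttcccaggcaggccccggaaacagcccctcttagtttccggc
Ercc2 promoter window, part of the region near Fosb, chr7:19381956-19382066, plus strand: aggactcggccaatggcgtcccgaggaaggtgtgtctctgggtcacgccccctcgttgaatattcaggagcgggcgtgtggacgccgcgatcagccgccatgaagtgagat
Both strands were searched for TGANTCA and for TGACGTCA with its looser form TGACNTCA, of which it is a special case. The shorter core TGACGT, which lies within TGACGTCA, and the CArG box, the site of serum response factor, were also searched. Neither stretch held any of these. The GC content was 66.4% in the Sart1 stretch and 62.2% in the Ercc2 stretch.

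Of the 10 AP-1 genes, 9 had a promoter sequence in the RefSeq table, and Fosl1 had none. None of the 9 windows overlapped a listed region. Such overlap was rare in general, at 615 of the 21263 promoter windows of protein-coding genes. With only 9 windows, its absence therefore does not set the AP-1 promoters apart. The windows of Jun, Fos and Atf3 are shown because these are the classical immediate early and stress-induced members and each holds a match to a searched motif, in capitals.
Jun, chr4:95052173-95052472, minus strand: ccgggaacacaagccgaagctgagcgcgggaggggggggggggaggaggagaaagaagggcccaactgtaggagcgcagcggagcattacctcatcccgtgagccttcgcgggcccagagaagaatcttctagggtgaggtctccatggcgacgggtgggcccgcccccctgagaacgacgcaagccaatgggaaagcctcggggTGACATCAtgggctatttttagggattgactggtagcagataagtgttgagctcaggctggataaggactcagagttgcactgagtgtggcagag
Fos, chr12:85473640-85473939, plus strand: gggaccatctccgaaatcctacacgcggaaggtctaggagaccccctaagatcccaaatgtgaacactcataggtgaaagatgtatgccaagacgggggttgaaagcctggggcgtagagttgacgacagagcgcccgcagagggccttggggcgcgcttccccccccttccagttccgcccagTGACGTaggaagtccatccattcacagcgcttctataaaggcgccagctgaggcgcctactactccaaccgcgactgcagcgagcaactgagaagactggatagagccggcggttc
Atf3, chr1:191183284-191183583, minus strand: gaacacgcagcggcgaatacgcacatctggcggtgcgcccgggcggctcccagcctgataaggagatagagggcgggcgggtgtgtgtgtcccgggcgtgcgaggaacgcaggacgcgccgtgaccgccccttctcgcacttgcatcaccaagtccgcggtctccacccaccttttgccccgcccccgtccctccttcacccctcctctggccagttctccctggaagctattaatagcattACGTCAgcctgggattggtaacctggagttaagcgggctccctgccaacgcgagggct
The match in Jun was TGACATCA, a form of TGACNTCA, beginning 45 bases before the annotated start. Fos held TGACGT from 66 bases before its start, and Atf3 held the same letters on the opposite strand, read as ACGTCA, from 8 bases before its start. Batf also held TGACGT, 98 bases before its start. No window of the 9 held TGANTCA, the full TGACGTCA or a CArG box. Among 21263 promoter windows of protein-coding genes, TGANTCA was found in 6.99%, TGACGTCA in 2.23%, TGACNTCA in 8.75%, TGACGT in 8.49% and a CArG box in 1.52%. A match is a run of letters and does not show binding in these cells, and a missing match speaks only of these 300 bases.

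Of the 10 AP-1 genes, 5 (Jun, Fosb, Fosl1, Atf3 and Batf3) had a listed region within 100 kb, against 42.7% of all protein-coding genes under the same rule and 35.1% of the 12520 genes no longer than Batf, the longest AP-1 gene at 22.4 kb. The count is near that background. No AP-1 gene had a region inside it or within 10 kb, against 15.2% of all protein-coding genes. The AP-1 genes are short, with a median span of 7.83 kb against 17.2 kb over protein-coding genes. Only the 35.1% share takes gene length into account, and the shares at 10 kb and by region width do not. The nearest approach of any region to an AP-1 gene was 26.6 kb, at Batf3. All 6 regions were 143 bases wide, so 5 of 10 genes had a 143-base region within 100 kb, against 29.0% of protein-coding genes, and 0 of 10 had a 451-base region, against 19.7%. In the whole list 49.4% of regions were 143 bases wide, and among the 5587 within 100 kb of any protein-coding gene 50.5% were. What the widths stand for is not given in the sources used here.

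**Figure D1:**
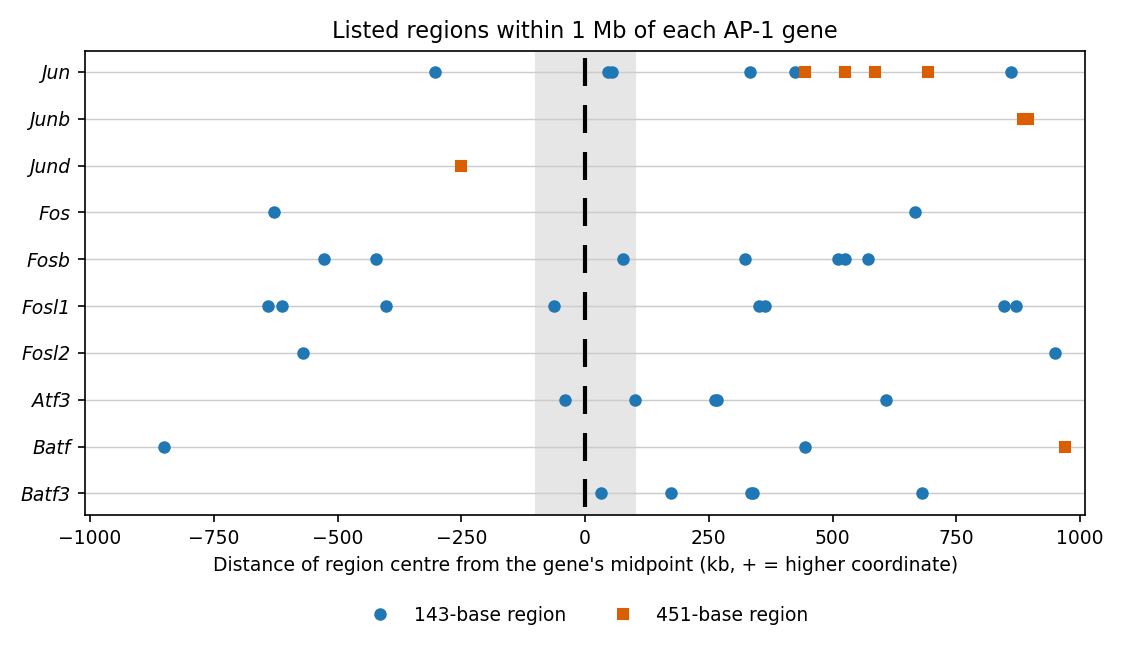
Each row is an AP-1 gene and each point a listed region, placed by the distance of its centre from the gene's midpoint in kb, with circles for 143-base and squares for 451-base regions. The grey band marks 100 kb on either side of the midpoint. The rule counts from the gene's ends, so the farther Atf3 region, 94.6 kb from the gene, sits on the edge of the band. All points in the band are 143-base regions, and the rows of Junb, Jund, Fos, Fosl2 and Batf have none there.

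Among the Jun genes, which encode the partner common to most AP-1 dimers, 1 of 3 had a region within 100 kb. The share over all protein-coding genes was 42.7%. Jun encodes the strongest transactivator of the family (NCBI gene 16476, chr4:95049036-95052222, minus strand, a span of 3.19 kb). Its 2 regions lay at chr4:95096807-95096949 and chr4:95105442-95105584, centred 44.7 and 53.3 kb upstream of the gene and 8.63 kb apart. No other protein-coding gene lay between them and Jun, and Jun was the nearest protein-coding gene of both. Both fell inside Junos, a long non-coding RNA gene on the opposite strand that starts 0.095 kb from the Jun start and spans 116.7 kb. RefSeq lists 7 starts for Junos, and the nearest of them was 2.06 kb from the first region and 10.7 kb from the second. On the other side of Jun the first listed region was 302.5 kb away. Within 1 Mb, Jun had 10 listed regions, 6 of 143 bases and 4 of 451 bases, the most of the 10 genes. The median was 4 over the 10 AP-1 genes, with a lowest count of 1 at Jund, and 5 over all protein-coding genes.

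Junb and Jund, whose proteins are weaker activators and often act against Jun, had no region within 100 kb. Junb (NCBI gene 16477, chr8:84976909-84978748) had its nearest region 883.9 kb upstream, a 451-base region inside Phkb, a phosphorylase kinase subunit gene, at chr8:85862386-85862836. On its other side the next region was 1534.4 kb away. This left Junb in a stretch of 2419.7 kb with no listed region, which held 70 protein-coding genes. Of the 6481 gaps between neighbouring regions 2.18% were longer, and 13.6% of protein-coding genes lay in a gap at least as long. Jund (NCBI gene 16478, chr8:70697739-70700616) had its nearest region 249.4 kb upstream at chr8:70448130-70448580, 451 bases wide and 1.86 kb from Klhl26. Its region-free stretch measured 1331.6 kb and held 61 protein-coding genes. Both genes sit among many neighbours, with 17 and 13 protein-coding genes within 100 kb of Junb and Jund, while Jun has 1. Such counts did not separate genes with and without a region over the whole set. Fosl1, Fosb, Batf3 and Atf3, each with a region, had 16, 12, 6 and 3. Fos, Batf and Fosl2, without one, had 1, 2 and 2.

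Of the Fos genes, whose proteins bind DNA only together with a partner such as Jun, 2 of 4 had a region within 100 kb. The share over all protein-coding genes was 42.7%. In both cases other genes lay nearer to the region. Fosb (NCBI gene 14282, chr7:19302696-19310118, minus strand) had a region at chr7:19381956-19382098, 71.9 kb upstream of the gene. The region covered the start of Ercc2, a helicase gene of DNA repair and transcription initiation, with its centre 10 bases past the start. Besides Ercc2, the stretch from Fosb to the region held Ercc1, Cd3eap and Ppp1r13l. Fosl1, which encodes FRA1 (NCBI gene 14283, chr19:5447698-5455938), had a region at chr19:5388722-5388864, 58.9 kb from the gene. Its centre was 90 bases before the start of Sart1, a splicing factor gene, and inside the long non-coding RNA gene D330050I16Rik. Tsga10ip, Drap1 and AI837181 lay between the region and Fosl1. These are the stretches printed above. Neither region therefore had an AP-1 gene as its nearest gene.

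Fos and Fosl2 had none within 100 kb. For Fos, the prototype immediate early gene (NCBI gene 14281, chr12:85473890-85477274), the nearest region was 626.9 kb upstream at chr12:84846931-84847073, 143 bases wide and inside Ltbp2, a gene of the extracellular matrix, with 14 protein-coding genes from Ltbp2 to Tmed10 lying between its centre and Fos. The next region on the other side was 665.2 kb away. Fosl2, which encodes FRA2 (NCBI gene 14284, chr5:32136472-32157840), had its nearest region 559.6 kb upstream at chr5:31576840-31576982, 143 bases wide, 15.2 kb from Slc4a1ap and 5.51 kb from the long non-coding RNA gene AI839979. On its other side the first region was 937.7 kb away.

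Atf3 and Batf3 are neighbours on chromosome 1, 61.4 kb apart, and shared a region, so the 7 gene and region pairs came from 6 regions. Atf3 encodes a stress-induced ATF protein that often represses (NCBI gene 11910, chr1:191170296-191183333, minus strand). Batf3 encodes a small bZIP partner of Jun best known from dendritic cells (NCBI gene 381319, chr1:191098414-191108943, plus strand). The shared region, chr1:191135518-191135660, lay between them, 26.6 kb past the end of Batf3 and 34.7 kb past the end of Atf3, and thus downstream of both. Batf3 was its nearest protein-coding gene and the non-coding gene Gm31696 was 2.39 kb away. Fam71a lay between the region and Atf3. The second region of Atf3, at chr1:191277829-191277971, was 94.6 kb upstream of the gene with no protein-coding gene between, but Nenf, a secreted neurotrophic factor gene, was nearer at 28.9 kb. It was the assigned region closest to the 100 kb limit. The first pair beyond the limit was this same region with Batf3, at 169.0 kb, followed by the nearest region of Jund at 249.4 kb. On the far side of Batf3 no region was listed for 1693.0 kb.

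Batf, a partner of Jun proteins best known from T cells (NCBI gene 53314, chr12:85686720-85709087), had no region within 100 kb. Its nearest was 433.4 kb downstream at chr12:86142402-86142544, 143 bases wide and inside Ift43, a cilium gene. Batf lies 209.4 kb from Fos, and both sat in the same region-free stretch of 1295.3 kb, a length reached by the gaps of 31.3% of protein-coding genes. That stretch held 20 protein-coding genes, among them Jdp2, which encodes a repressive Jun dimerization protein and lies between Fos and Batf. Cells carrying CD45, the surface marker of the leukocytes in which Batf and Batf3 are best known, were sorted away.

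**Figure D2:**
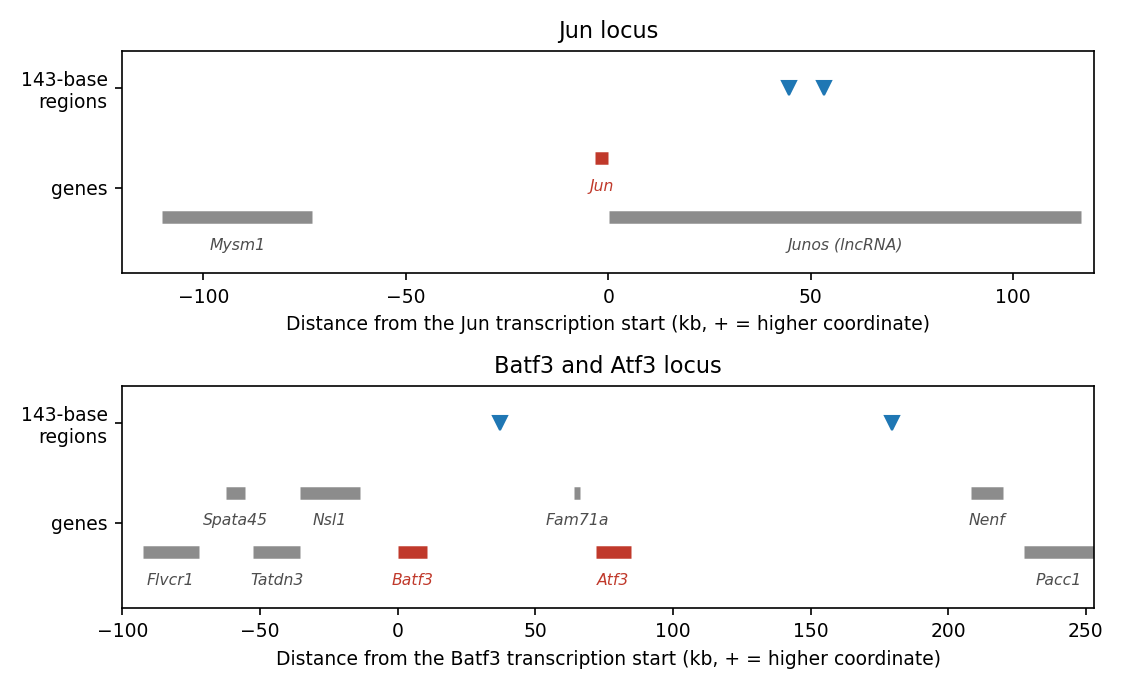
Genes (bars, AP-1 genes in red, others in grey) and listed 143-base regions (triangles) are drawn to scale around Jun and around Batf3 and Atf3, in kb from the transcription start of Jun and of Batf3. Protein-coding genes and the long non-coding RNA gene Junos are shown. Both Jun regions lie over Junos with no protein-coding gene between them and Jun, and the region 26.6 kb past Batf3 lies between Batf3 and Atf3.

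Ordered by distance to the nearest region, Batf3 (26.6 kb), Atf3 (34.7 kb), Jun (44.7 kb), Fosl1 (58.9 kb) and Fosb (71.9 kb) came first. Jund (249.4 kb), Batf (433.4 kb), Fosl2 (559.6 kb), Fos (626.9 kb) and Junb (883.9 kb) followed. No AP-1 gene fell between 71.9 and 249.4 kb. The median over the 10 genes was 160.6 kb, against 135.6 kb over all protein-coding genes, and 5 of the 10 were farther than that median. A nearer region was found for 21.8% of protein-coding genes when set beside Batf3 and for 91.4% when set beside Junb. Region-free stretches of 1 Mb or more held 6 of the 10 genes (Junb, Jund, Fos, Fosl2, Batf and Batf3), against 39.9% of protein-coding genes. Neither that share nor the median of 135.6 kb takes gene length into account.

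**Figure D3:**
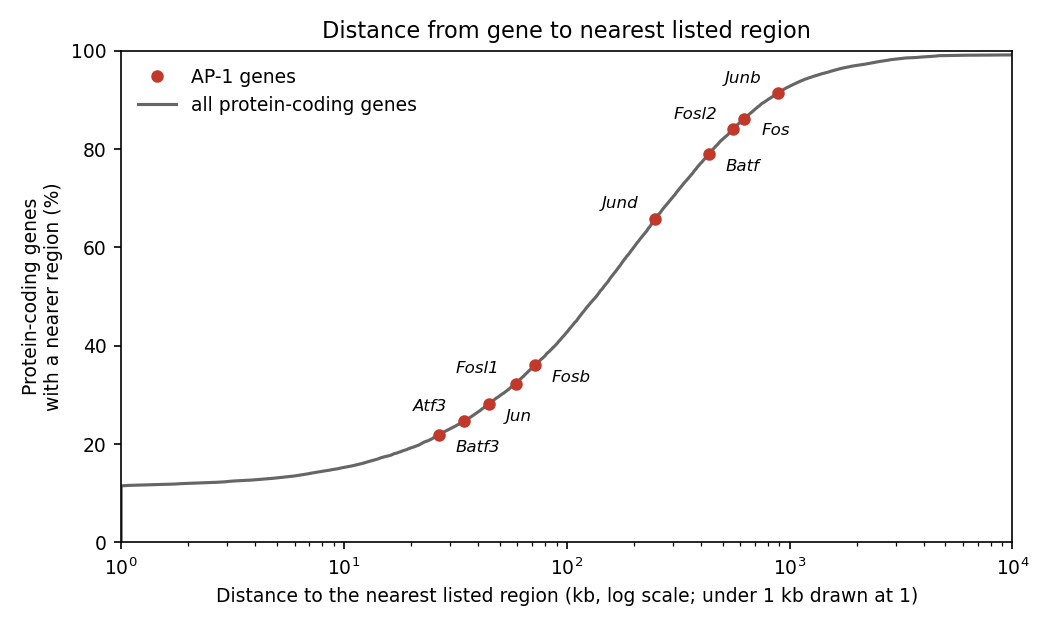
The horizontal axis is the distance from a gene to its nearest listed region in kb on a log scale, and the vertical axis the percentage of protein-coding genes with a nearer region. The grey line shows all protein-coding genes and red points the 10 AP-1 genes. The points form a nearer group from Batf3 at 26.6 kb to Fosb at 71.9 kb and a farther group from Jund at 249.4 kb to Junb at 883.9 kb.

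Some genes that act with or upstream of AP-1 had regions nearer than any AP-1 gene did. Such nearness is not particular to them, since 21.8% of all protein-coding genes had a region nearer than the 26.6 kb of Batf3. The listed genes whose distances are given below were picked nearest first. The median distance to the nearest region was 160.6 kb over the AP-1 genes and 179.8 kb over the other bZIP genes. It was 34.0 kb over the MAP kinase genes below and 128.0 kb over their phosphatases. Serum response genes had a median of 113.4 kb and textbook genes with AP-1 sites 157.1 kb. Among 25 other bZIP genes, 7 had a region within 100 kb (28.0%, against 42.7% of protein-coding genes) and 3 within 10 kb (12.0%, against 15.2%). Bach2, a repressor that competes for AP-1 sites, had 5 regions, 4 of them inside the gene, and Bach1 had 3, 1 of them inside. Cebpa, a C/EBP gene, had 3, the nearest 6.03 kb away. Cebpd and Atf2 had 1 each, 24.1 and 32.8 kb away. The AP-1 relatives Jdp2 and Batf2, a Batf paralog, had none.

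Of 23 genes of the MAP kinase cascades that phosphorylate Jun, Fos and ATF proteins or their activators, 16 had a region within 100 kb (69.6%, against 42.7%) and 6 within 10 kb (26.1%, against 15.2%). These genes are long, with a median span of 60.0 kb against 17.2 kb over protein-coding genes, and a longer gene has a wider window. Mapk8, which encodes the Jun kinase JNK1, had 4 regions, all of 143 bases and 1 of them inside the gene. Map3k1 had a 451-base region inside it, Map2k6 likewise, and Map3k5 had a region of each width inside it. Map3k7, which encodes TAK1 of the IL-1 pathway, had a 143-base region 1.88 kb away. Map2k4, which encodes a kinase of JNK, had one 6.68 kb away.

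Phosphatases that switch MAP kinases off had a region within 100 kb at 5 of 11 genes (45.5%, against 42.7% of protein-coding genes) and within 10 kb at 3 (27.3%, against 15.2%). The wider count is near the background. Dusp10 had 4 regions, all of 451 bases, of which 2 lay inside it and the others 0.283 and 1.31 kb outside. Dusp16 had 4 and Dusp1 had 3, all of 143 bases, and the nearest to Dusp1 lay 0.346 kb outside the gene. Dusp5 had 2 of 143 bases, the nearer 11.9 kb away, and Dusp6 had 2 of 451 bases, the nearer 86.4 kb away.

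Among 15 serum response genes, which are induced together with Fos or control it, 7 had a region within 100 kb (46.7%, near the 42.7% of protein-coding genes) and 3 within 10 kb (20.0%, against 15.2%). Elk4 had a 143-base region inside the gene and in its promoter window. Elk3, which like Elk4 encodes a ternary complex factor of the Fos promoter, had 4 of 451 bases, 3 of them inside. The region of Egr2 lay 7.00 kb away, in the promoter window of Ado. Ier3, Ier5 and Nr4a1 had their nearest at 26.5, 45.2 and 71.1 kb, and Srf and Egr1 had none. Of 20 genes described in textbooks as carrying AP-1 sites, 9 had a region within 100 kb (45.0%, against 42.7%) and 5 within 10 kb (25.0%, against 15.2%). Plaur, the urokinase receptor gene, and Lor, a cornified envelope gene, had a region inside, 0.65 and 0.815 kb from a gene end. Krt6a, a stress keratin gene, had a region 0.116 kb outside. Tgfb1, Plau and Mmp10 had their nearest at 6.85, 7.29 and 16.5 kb.

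**Figure D4:**
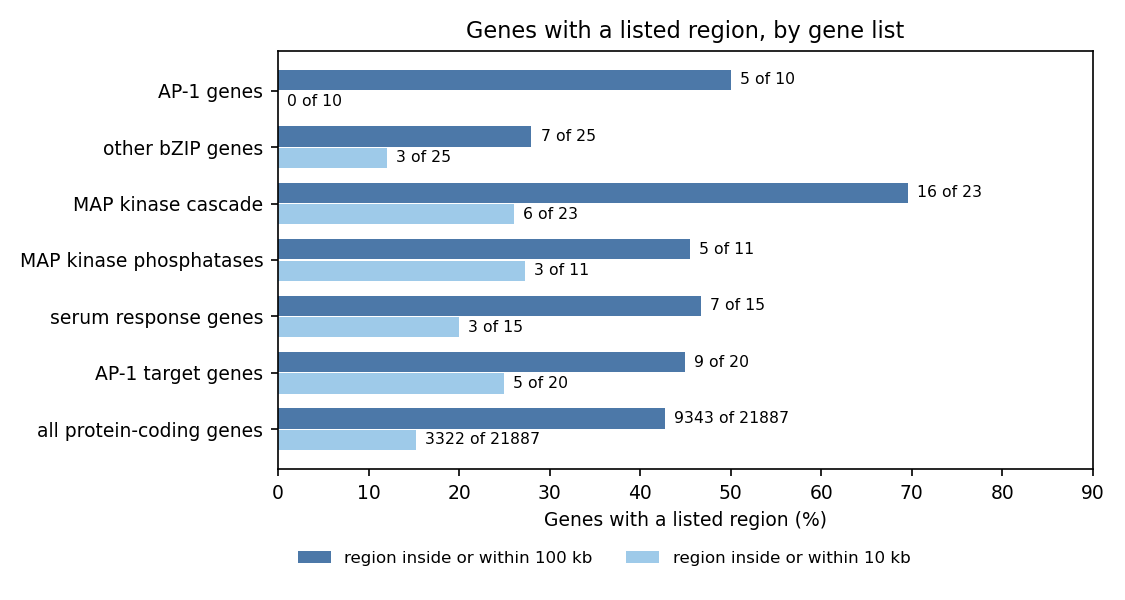
Bars give the percentage of each list's genes with a listed region inside or within 100 kb (dark) and inside or within 10 kb (light), with the counts beside them. The AP-1 genes stand at 5 of 10 and 0 of 10, the MAP kinase cascade at 16 of 23 and 6 of 23, and all protein-coding genes at 42.7% and 15.2%.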

How the data were processed

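ATAC-seq libraries of sorted prostate basal stem cells, 3 inflamed and 3 naive, enter only through 1 merged list. The authors deposited it as chromosome, start and end per region; these are coordinates of another kind than a signal, with no count, score or fold. The submitters' processing notes name mm10 and, as tools, edgeR, HOMER 4.8, SAMtools and BWA 0.7.17-r1188. Their order and thresholds, and whether libraries were pooled, are not given in the sources used here.

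Starts counted from 0 were printed from 1. Gene spans came from RefSeq GRCm38.p6, the assembly of mm10, without exons, so exons, introns and UTRs were not told apart. Distances run from a region's centre to the gene span; strand and starts came from the RefSeq promoter table. Motifs were searched on both strands. All lists, the members included, were chosen with earlier results of these data known. Named were the 10 members, the nearest protein-coding gene of each of their regions, and up to 6 genes per list, nearest first (1 gene so selected is not reported here); others (Jdp2, Batf2, Srf, Egr1, genes between) were named after their positions were seen. Counts are descriptions without a test. The distance search, checked on 200 planted regions, returned all 200 distances. Python 3.11.15, pandas 2.3.3, numpy 2.4.6, scipy 1.17.1 and matplotlib 3.10.9 were used.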

Additional observations from a re-analysis of the deposited data

How the results depend on the processing

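No paired analysis was possible because no value belongs to a single library, so neither a replicate block nor leaving out a library could be run. With a window of 50 kb in place of 100 kb, 2 regions and 3 AP-1 genes remained of 6 and 5, against 29.7% of protein-coding genes; with 200 kb the counts were again 6 and 5, against 60.0%. Using only 451-base regions gave 0 regions and 0 genes. Counting only regions whose nearest protein-coding gene is an AP-1 gene gave 3 regions and 2 genes. This count and the next have no share over protein-coding genes beside them. Distance from the annotated start gave 5 regions and 4 genes, since Fosl1 has no start in the table used. Placing regions by any overlap, using only the narrower regions and merging rows within 1 kb each gave 6 and 5. The choice of width could give no other counts, because all 6 regions are 143 bases wide. Nor could merging join any of them, because the closest other listed region was 8.63 kb away. The count of 0 genes with a region inside or within 10 kb was also 0 at 5 and 20 kb and under the other alternatives run. The nearest region lay 26.6 kb from an AP-1 gene, so these settings could not have given another count. The background share of 42.7% was 39.1% over all 49943 genes and 35.1% over protein-coding genes no longer than Batf. Without signal or direction, depth limits cannot be stated.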

Other observations

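Across the whole list, 615 promoter windows of protein-coding genes overlapped a listed region, and their content of the searched motifs is given by region width. TGANTCA was present in 15 of 108 windows overlapping a 143-base region (13.9%, exact 95% interval 7.99 to 21.9) and in 19 of 507 overlapping a 451-base region (3.75%, 2.27 to 5.79), against 6.99% of all 21263 protein-coding promoter windows (6.65 to 7.34). Over both widths together it was present in 34 of 615 (5.53%, 3.86 to 7.64). TGACGT was present in 13.9% (7.99 to 21.9) and 13.8% (10.9 to 17.1) of the windows of those widths, against 8.49% of all (8.12 to 8.88). The full TGACGTCA was present in 1.85% (0.225 to 6.53) and 3.35% (1.97 to 5.31), against 2.23% of all. The looser TGACNTCA was present in 6.48% (2.65 to 12.9) and 6.11% (4.19 to 8.57), against 8.75% of all, a value inside the first interval and above the second. A CArG box was present in 0.926% (0.0234 to 5.05) and 0.986% (0.321 to 2.29), against 1.52% of all. The intervals are Clopper-Pearson and cover counting error only, windows of paired genes share bases, GC content was not matched and the difference was not tested.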
